A study of Mus musculus with 2 samples.

Results

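Regulatory T cell genes were examined in activated CD4 T cells that carry a wild-type or a knockout label for Gfi1, whose product is a DNA-binding transcriptional repressor. The 9 genes are Foxp3, Ikzf2 (Helios), Ikzf4 (Eos), Lrrc32 (GARP), Nt5e (CD73), Entpd1 (CD39), Nrp1 (neuropilin-1), Gpr83 and Itgae (CD103). They were taken as every probe that the platform annotation assigns to one of these symbols, which gave 12 probes of 55681 and 9 of 20738 named genes. Ikzf2 was read by 2 probes, Ikzf4 by 3 and each of the other 7 genes by 1, each probe on 1 spot.

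According to the labels, both groups were C57BL/6 spleen cells, sorted with a kit as naive CD4 T cells that are low in CD44, high in CD62L and negative for CD25. Both were stimulated for 2 days on immobilised antibody against TCR-β, a chain of the T cell receptor (3 µg/ml), with antibody to CD28 (1 µg/ml) and IL-2 (10 ng/ml). Antibodies that block IL-4 and IFN-γ (5 µg/ml each) were present in both. One group is labelled Gfi1 wild type and the other Gfi1 knock out, with 1 culture and 1 array (1-colour, Cy3) each. How the knockout was made, whether animals were pooled and their age are not given in the sources used here. The title of the series places the comparison in the T helper 1 programme, and regulatory T cell genes bear on a neighbouring fate of the same cells. With 1 array per genotype there is no replicate check and no p-value. The arrays also differed in sex-linked transcripts, given below with Foxp3, so genotype label and sex cannot be told apart in any difference. Every difference below is on the log2 scale and is the knockout label minus the wild-type label, after each array was scaled to its 75th percentile.

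Regulatory T cells are CD4 T cells that restrain immune responses, and FOXP3 is the transcription factor that defines them. Helios and Eos are zinc-finger factors of the Ikaros family that act with FOXP3. On the cell surface, GARP holds latent TGF-β, and CD39 and CD73 act in turn to break extracellular ATP down to adenosine. Neuropilin-1 is a coreceptor for semaphorins and VEGF, GPR83 is a G protein-coupled receptor, and CD103 is the integrin chain that pairs with integrin β7 to bind E-cadherin. Conventional T cells, B cells, dendritic cells and other cells also use several of these surface genes. In RNA of a whole culture, fewer cells of a type and less RNA per cell cannot be told apart.

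The target gene and the cell type markers were read first. Gfi1 read 4260 units under the wild-type label and 18100 under the knockout label, which is 4.15-fold higher. The sources used here do not place its single probe relative to the deletion, so the reading cannot check the labels, and every direction below rests on them. Cd4 differed by -0.14 ± 0.03 (SD over 2 probes). Of the 11 detected CD4 T cell markers 8 lay below 0, as did 7830 of all 13411 detected genes. Markers of some other cell types, though not of all, read higher under the knockout label. All 14 CD8 T and NK cell markers lay above 0, where 41.6% of all detected genes did. Their summed signal was 531 units under the wild-type label and 1468 under the knockout label. Of these 14, 5 were below the floor under the wild-type label. They counted as detected through the knockout array alone, which fixed their sign in advance. Of the B cell markers 8 of 9 detected lay above 0 (summed 541 and 1341 units), and of the mast cell and basophil markers 5 of 5 (198 and 597 units). Detected through the knockout array alone were 1 of these B cell markers and 2 of these mast cell and basophil markers. Of the mast cell and basophil markers, Cpa3 (29.8 and 101 units) and Fcer1a (28.8 and 70.9 units) were read only above feature number 50000. Dim spots there were less even, as given below with Ikzf2. The plasmacytoid dendritic cell list had 4 of 6 detected markers above 0 (14852 and 31101 units), the conventional dendritic cell list 7 of 7 (138651 and 155463 units), the monocyte and macrophage list 5 of 8 (366 and 422 units) and the granulocyte list 1 of 4 (45551 and 44243 units). Detected through the knockout array alone were 1 conventional dendritic cell marker, 3 monocyte and macrophage markers and 1 granulocyte marker. Through the wild-type array alone, the last 2 lists had 2 markers each. Among defining markers, Itgax, Xcr1, Clec9a, Lyz2, Cd14, S100a8, S100a9, Pax5 and Ms4a2 were above the floor on neither array. Other genes of these lists, not all of them particular to 1 cell type, were brighter under the knockout label. Mpeg1 read 11.7 and 335 units, Ms4a1 18.9 and 221, Kit 4.22 and 77.5, Gata2 7.17 and 46.3, H2-Aa 12.5 and 78.6 and Cd8a 4.07 and 34.9. All of these but Ms4a1 were below the floor under the wild-type label. Detected members of the same lists that differed little were Csf1r (0.01), Marco (0.002), Itgam (-0.07) and Cd79b (-0.17). The sums of the conventional dendritic cell and granulocyte lists are mostly Ccr7 and Csf3r, each bright on both arrays. That of the plasmacytoid dendritic cell list is mostly Bst2 (6350 and 13400 units) and Irf8 (6330 and 15300 units). Of its other detected markers, Siglech stood at -0.0004, Pacsin1 at -0.02, Tcf4 at 0.85 and Ly6d at 2.39. The part of these cells in the results below was not tested.

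A signal counted as above the floor where it exceeded the array's median over all probes (14.2 units under the wild-type label, 14.6 under the knockout label). Of the 9 genes, 6 were above the floor on both arrays, Gpr83 on the wild-type array alone, and Entpd1 and Itgae on neither. The library labelled knockout had 1 gene at least 2-fold higher, Lrrc32, against 3.62% of all 13411 detected genes, and 1 gene at least 2-fold lower, Nt5e, against 1.52%. The 5 other genes with a value lay within 2-fold, 3 above 0 and 2 below. The factor genes Foxp3 and Ikzf2 and the surface gene Lrrc32 read higher under the knockout label, and the surface genes Nt5e and Gpr83 read lower.

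**Figure D1:**
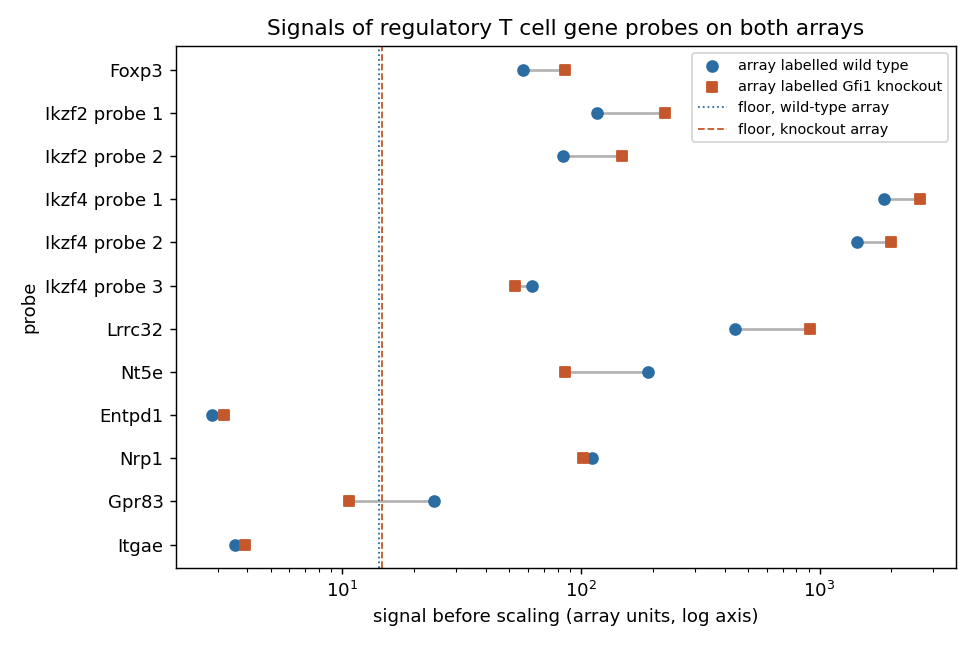
Signal of each of the 12 probes on the array labelled wild type (circles) and the array labelled Gfi1 knockout (squares), in array units before scaling on a log axis, with each array's floor as a vertical line. Foxp3, both Ikzf2 probes and Lrrc32 read higher under the knockout label, Nt5e and Gpr83 read lower, and both signals of Entpd1 and of Itgae lie left of the floor.

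Foxp3 read 56.9 units under the wild-type label and 85.8 units under the knockout label. This is a difference of 0.56, or 1.47-fold higher, and 1078 of the 13411 detected genes had a higher difference. Among 63 probes printed on 10 spots with signals of 50 to 500 units, repeated spots gave differences with a median SD of 0.11. The Foxp3 value is thus larger than the spread between spots of 1 probe, which leaves out the spread between cultures. Among the 4161 genes of this signal range, the differences ran from -0.57 at the 5th percentile to 0.97 at the 95th, so Foxp3 lay inside the range of 90% of comparably bright genes. The platform annotation names no other probe for Foxp3.

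Foxp3 is an X-linked gene, and the arrays differed in sex-linked transcripts. Xist, the RNA of the inactive X chromosome, read 447 units under the wild-type label and 3.86 units, below the floor, under the knockout label, while the Y-linked Eif2s3y read 2.91 and 3870 units. These are readings of female cells under the wild-type label and of male cells under the knockout label. Genotype label and sex therefore cannot be told apart, for Foxp3 or for any other difference given here. The 464 detected X-linked genes other than Xist had a median difference of -0.06 and the 12934 autosomal genes one of -0.05. A difference above that of Foxp3 was found in 7.76% of the X-linked genes and in 8% of the autosomal ones.

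GFI1 protein binds DNA through a core of AATC, and the promoters of the 9 genes were searched for these letters. RefSeq promoter windows of GRCm38.p6 were found for 5 of the 9 genes (Foxp3, Nt5e, Gpr83, Nrp1 and Entpd1). Ikzf2, Ikzf4, Lrrc32 and Itgae had no entry. The windows of Foxp3 (higher, at its first start), Nt5e (the lowest) and Nrp1 (which differed little) are shown here, as the 250 bases before the start. Those of Gpr83, which was also lower, of Entpd1 and of the second Foxp3 start are not shown. Each lies on the plus strand and is written 5′ to 3′, and capitals mark AATC or its reverse complement GATT.
Foxp3, chrX:7579426-7579675: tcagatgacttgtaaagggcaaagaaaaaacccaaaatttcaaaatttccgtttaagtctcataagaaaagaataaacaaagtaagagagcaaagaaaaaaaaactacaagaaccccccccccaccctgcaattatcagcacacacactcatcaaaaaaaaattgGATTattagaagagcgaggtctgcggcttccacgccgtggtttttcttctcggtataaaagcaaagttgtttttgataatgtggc
Nt5e, chr9:88327359-88327608: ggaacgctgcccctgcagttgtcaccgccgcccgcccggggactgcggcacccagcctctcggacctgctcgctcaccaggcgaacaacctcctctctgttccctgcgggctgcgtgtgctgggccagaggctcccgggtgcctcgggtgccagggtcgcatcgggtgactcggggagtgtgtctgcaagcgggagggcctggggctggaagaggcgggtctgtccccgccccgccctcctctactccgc
Nrp1, chr8:128358823-128359072: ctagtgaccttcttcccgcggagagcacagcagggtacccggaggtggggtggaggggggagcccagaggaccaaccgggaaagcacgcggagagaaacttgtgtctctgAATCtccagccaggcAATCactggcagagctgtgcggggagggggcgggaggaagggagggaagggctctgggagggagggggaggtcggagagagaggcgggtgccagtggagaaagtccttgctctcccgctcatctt

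The Foxp3 window held 1 match, on the minus strand (GATT), the Nrp1 window held it at 2 places, and the Nt5e window at 0. Of 32851 promoter windows of this length, 69% held AATC on either strand. The Gpr83 window and the window of the second Foxp3 start (chrX:7580233-7580482) held 0 matches, and of the 2 Entpd1 windows 1 held 1 match. The longer GFI1 motif TAAATCAC, which contains AATC, was in none of the 7 windows of these genes and in 0.514% of all windows on either strand. The Foxp3 window above also held TATAAA, the letters of a TATA box, as 12.4% of all windows did. Its base composition was 37.6% G and C, against 72% in the Nt5e window and 64.4% in the Nrp1 window. These matches describe letters in the windows, and binding was not measured.

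The Ikaros-family partners of FOXP3 differed from each other. For Ikzf2, which encodes Helios, the first probe read 117 units under the wild-type label and 225 under the knockout label, and the second read 84.1 and 149 units. Both probes were brighter under the knockout label, by 0.91 and 0.79. The gene value was 0.85 ± 0.08 (SD over 2 probes), or 1.80-fold higher, and 631 detected genes had a higher difference. The second probe lies above feature number 50000, where dim spots were less even: 16.3% of spots of 15 to 500 units above that number differed 2-fold, against 5.78% below it. The first probe lies below that number and gave the larger of the 2 differences.

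Ikzf4, which encodes Eos, was split between its probes. The first probe read 1870 units under the wild-type label and 2640 under the knockout label, and the second 1430 and 1990 units. The last, dim probe read 62.4 and 52.9 units. The bright probes were higher under the knockout label by 0.46 and 0.44, and the last was lower, at -0.27. The gap of 0.74 between the first and the last exceeds the SD over spots of 0.05 at 500 to 5000 units and of 0.11 at 50 to 500 units. The mean over all 3 was 0.21 ± 0.42 (SD over 3 probes), so the spread between probes is larger than the mean. The second and the last probe both lie above feature number 50000, and without such spots Ikzf4 stood at 0.46 on the first probe alone. The other Ikaros-family genes stood at -0.27 for Ikzf1 (Ikaros), 0.66 for Ikzf3 (Aiolos), read at 17.8 and 28.7 units close to the floor, and -0.11 for Ikzf5 (Pegasus), read only above feature number 50000. Of these 3 genes, 0 were past 2-fold.

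Lrrc32 had the highest difference of the 9 genes. It encodes GARP, the receptor that presents latent TGF-β on regulatory T cells. Its probe read 442 units under the wild-type label and 916 units under the knockout label, a difference of 1.02, or 2.03-fold. This lies just past the 2-fold limit, and it was 0.99 when 16 units were added to each signal. Of 103 replicated probes with signals of 500 to 5000 units the median SD over spots was 0.05. Among the 4653 genes of that signal range the 95th percentile of the differences was 0.50, and 1.59% were at least 2-fold higher, so Lrrc32 lay outside the range of most genes as bright as itself.

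Genes that make, release or bind TGF-β were read beside it. Of 15 genes in the list, 11 were detected, with a median of 0.14, against -0.05 over all detected genes. Through the knockout array alone, 1 of the 11 was detected, which fixed its sign in advance. With probes detected on both arrays the median was 0.11. Of the 11, 2 were at least 2-fold higher and 0 lower by as much, against 3.62% and 1.52% of all detected genes. Itgav, the integrin αv chain that frees TGF-β from its latent form, stood at 1.15, from 115 to 262 units. Furin, the protease that cuts the TGF-β precursor, stood at 1.00, from 1150 to 2360 units, just past the 2-fold limit. Ltbp3, a latent TGF-β binding protein, stood at 0.33, Itgb3 at 0.24 and Tgfb1 itself at 0.14. Itgb8, whose product pairs with integrin αv on regulatory T cells, was above the floor on neither array (4.53 and 6.25 units).

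Nt5e had the lowest difference of the 9 genes. It encodes CD73, the enzyme that turns AMP into adenosine. Its probe read 191 units under the wild-type label and 85.7 units under the knockout label, a difference of -1.19, or 2.28-fold lower. Only 153 of the 13411 detected genes had a lower difference. Among genes of 50 to 500 units 1.47% were at least 2-fold lower, and the median SD over spots of the replicated probes was 0.11. Entpd1, which encodes CD39, the enzyme one step earlier, read 2.83 and 3.18 units and was above the floor on neither array, so no fold is given. The pair of enzymes that makes adenosine was therefore read through Nt5e alone.

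Other genes of ATP and adenosine handling differed less than Nt5e. Of 29 genes in the list 22 were detected, 8 above 0 and 14 below, with a median of -0.15. In either direction 0 were past 2-fold, against 3.62% higher and 1.52% lower over all detected genes. Alpl, a tissue phosphatase that can also act on AMP, stood at -0.99 on dim signals of 55.5 and 28.5 units. Entpd2, a relative of CD39, stood at -0.80, from 48.5 to 28.5 units, on a spot above feature number 50000. Adora3, an adenosine receptor gene, stood at 0.85 on signals of 22.1 and 40.8 units. Ada, which encodes the deaminase that removes adenosine, stood at 0.63, from 1470 to 2320 units. Adora2a and Adora2b had no named probe.

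**Figure D2:**
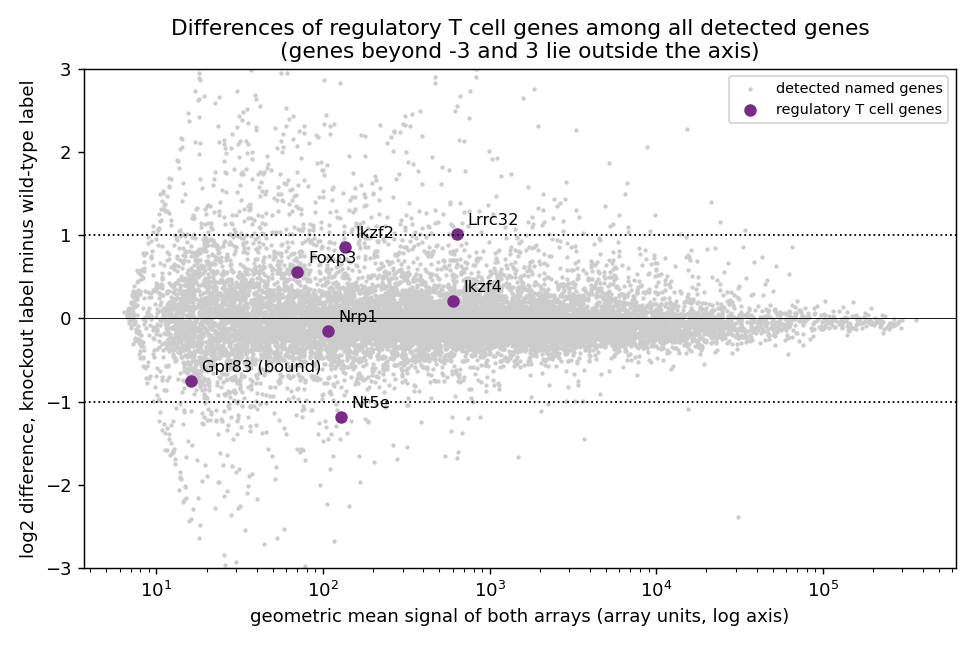
Log2 difference (knockout label minus wild-type label) against the geometric mean signal of both arrays on a log axis, for all 13411 detected genes (grey, the vertical axis ends at -3 and 3) and for the 7 regulatory T cell genes with a value (purple), with dotted lines at 2-fold. Lrrc32 at 1.02 and Nt5e at -1.19 lie beyond the dotted lines, Ikzf2 and Foxp3 lie between 0 and the upper line, and Gpr83 is a bound.

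The remaining surface genes were dim or differed little. Gpr83 read 24.1 units under the wild-type label and 10.7 units, below that array's floor, under the knockout label. Its difference is therefore a bound, at least 1.69-fold lower, and taken without a floor it was -1.20. Replicated probes of 15 to 50 units had a median SD of 0.35 over spots, and 4.8% of genes in that range were at least 2-fold lower, so the depth of this signal allows no firm size. Nrp1 read 111 and 102 units, a difference of -0.15, which is close to the SD of 0.11 over spots. It lay near the median of all genes, with 9214 genes higher and 4196 lower. Itgae, which encodes CD103, read 3.55 and 3.90 units and was above the floor on neither array. The accession behind the Itgae probe was not found in the RefSeq table, and the gene name is that of the platform annotation.

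Partners of neuropilin-1 and CD103 were measured as well. Of 18 genes of neuropilin ligands and coreceptors 13 were detected, with a median of 0.17. Through the knockout array alone 1 was detected, and through the wild-type array alone 1, which fixed their signs in advance. Of the 13, 2 were at least 2-fold higher and 0 lower by as much, against 3.62% and 1.52% of all detected genes. Both of the former were semaphorins: Sema7a read 137 and 702 units, a difference of 2.32, and Sema4a, a ligand of neuropilin-1 on regulatory T cells, read 2070 and 5200 units, a difference of 1.30. SEMA7A is known to signal through plexin C1 and integrins rather than neuropilin. Vegfa stood at 0.52 and the plexin gene Plxnb2 at 0.47. Of 15 genes on CD103 pairing and residence in epithelia 10 were detected, with 0 past 2-fold and a median of 0.18. Itgb7, the partner chain of CD103, stood at 0.20 (8490 and 9960 units), and Cdh1, which encodes its ligand E-cadherin, was above the floor on neither array. Gpr55 (-0.94, on signals of 38.1 and 20.3 units) and Klf2 (-0.87, 1280 and 715 units), a factor of naive T cell recirculation, were lower, both on spots above feature number 50000. Prdm1, which encodes BLIMP1, stood at 0.79 and Runx3 at 0.67.

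Genes that induce or keep up Foxp3 were near the centre of all genes. Of the 31 genes, all detected, 16 lay above 0 and 15 below, with a median of 0.02. That median crossed 0 under 3 of 13 other settings. Past 2-fold were 1 higher gene and 0 lower ones, against 3.62% and 1.52% of all detected genes. The higher gene was Nr4a3, one of the NR4A receptors induced by T cell receptor signals, at 1.46, read at 39.9 and 113 units. Its relative Nr4a1 stood at 0.76, from 11800 to 20500 units. On the IL-2 axis, which drives Foxp3 through STAT5, the receptor chain gene Il2rb stood at 0.67, Il2ra (CD25) at 0.29 and Il2rg at -0.17. Il2ra read 34200 and 42800 units in cells that the labels describe as CD25-negative before stimulation. The TGF-β receptor and SMAD genes lay between -0.16 for Tgfbr1 and 0.09 for Smad4.

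Other genes of the regulatory T cell signature lay above 0 in most cases. Of 33 genes 28 were detected, 22 above 0 and 6 below, where 41.6% of all detected genes lay above 0. Of the 22, 1 was detected through the knockout array alone, which fixed its sign in advance. The median of the 28 was 0.27, and 2 higher genes and 0 lower ones passed 2-fold, against 3.62% and 1.52% of all detected genes. Gzmb, the granzyme B gene that cytotoxic cells share, read 6900 and 34000 units, a difference of 2.27. Cd83, a surface protein of activated lymphocytes and dendritic cells, read 4560 and 10000 units, a difference of 1.10. Socs2, an inhibitor of cytokine signalling, stood at 0.85 and the chemokine receptor gene Cxcr3, on a spot above feature number 50000, at 0.81. The receptor genes best known from regulatory T cells differed less: Ctla4, also on such a spot, stood at 0.04, Tnfrsf18 (GITR) at 0.33, Icos at 0.77 and Ccr6 at -0.75. Il10, Il12a and Fgl2 were above the floor on neither array. Gzmb and Cd83 are also expressed by the CD8 T, NK and dendritic cells whose markers are given above.

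Genes that FOXP3 is known to repress also lay above 0 in most cases. Of the 12 genes, all detected, 9 lay above 0, where 41.6% of all detected genes did, with a median of 0.44. Past 2-fold were 3 higher genes and 0 lower ones, against 3.62% and 1.52% of all detected genes. The 3 were Ifng (4.11), Il2 (2.14) and Il7r (1.40), which encode IFN-γ, IL-2 and the IL-7 receptor chain. Il2 was read at 310 and 1400 units on a spot above feature number 50000. Il4 stood at 0.85 on signals of 17.6 and 32.3 units. Actn1 at -0.41, Tcf7 at -0.30 and Pde3b at -0.26 were the members below 0. Ifng and Il2 belong as much to T helper 1 and activation genes as to this list. The CD8 T and NK markers given above were higher in the same library, and the part of such cells here was not tested.

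Partners of FOXP3 were mostly near 0. Of the 19 genes, all detected, 8 lay above 0, where 41.6% of all detected genes did, and 11 below, with a median of -0.11. Past 2-fold were 2 higher genes and 1 lower gene, against 3.62% and 1.52% of all detected genes. Hif1a, the hypoxia factor that can bind FOXP3, stood at 1.12 (159 and 352 units), and Irf4, a factor of effector regulatory T cells and of activated T cells alike, at 1.04 (4650 and 9780 units). Hdac9, a deacetylase gene, read 63.8 units under the wild-type label and 4.94 units, below that array's floor, under the knockout label, at least 4.47-fold lower on its 1 detected probe. Gata3 stood at 0.68.

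**Figure D3:**
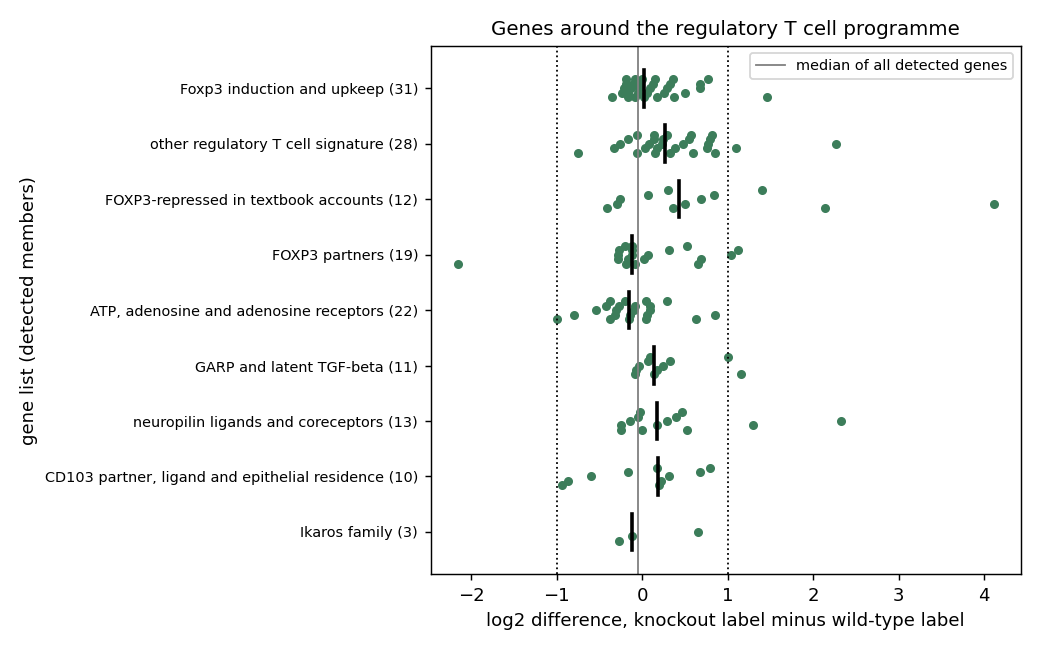
Log2 difference (knockout label minus wild-type label) of every detected gene in 9 lists around the regulatory T cell programme, with a black bar at each list's median, a grey line at the median of all detected genes (-0.05) and dotted lines at 2-fold. List medians lie between -0.15 and 0.44, the highest point is Ifng at 4.11 and the lowest is the bound of Hdac9.

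The 7 genes with a value kept their sign under every setting that gave one. Foxp3 ranged from 0.45 to 0.63, Ikzf2 from 0.76 to 0.92 and Lrrc32 from 0.99 to 1.08. Nt5e ranged from -1.20 to -1.06, Nrp1 from -0.16 to -0.08 and Ikzf4 from 0.21 to 0.46. Gpr83 had the widest range, from -1.20 to -0.42, set by how signals near the floor were treated. With the floor raised to each array's 75th percentile, only Ikzf4 and Lrrc32 had a value.

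**Figure D4:**
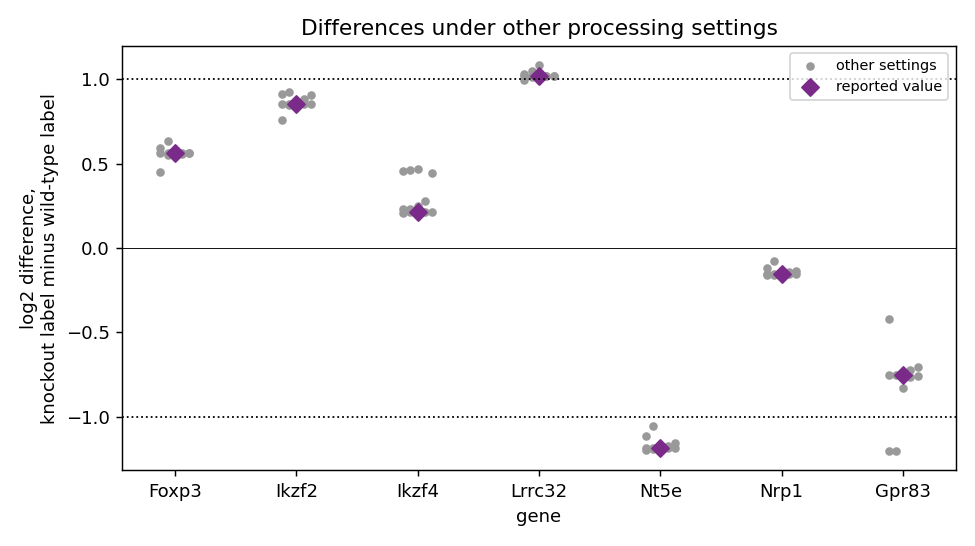
Log2 difference (knockout label minus wild-type label) of the 7 genes with a value as reported (diamonds) and under each other setting that gave a value (grey points), with dotted lines at 2-fold. Signs are the same under all settings, Lrrc32 sits on the upper line, and Gpr83 crosses the lower line without a floor.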

How the data were processed

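RNA (100 ng per array) of 1 culture per genotype label was hybridised to 1-colour arrays, processed with Agilent Feature Extraction 11.5.1.1 per the submitters' processing notes. Intensity per spot, on a linear scale, was deposited by the authors, with a background correction not given in the sources used here. The authors' second deposited table of intensity, about 2.27 and 2.26 times these values, was an alternative. Spots were put on the log2 scale, averaged per probe and scaled to each array's 75th percentile (263 and 269 units). Signals at or under the median over probes were set to that floor, and a fold with 1 side at the floor is a bound. Probes above the floor on neither array were left out, and the mean over the remaining probes of a gene is its value. Symbols of the platform annotation were updated through a RefSeq table of GRCm38.p6 by accession for 29036 spots, by symbol for 2075 and by synonym for 349; 5 kept the annotation's name and 27840 spots had none.

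Genes were counted at 2-fold, with no test, since each genotype has 1 array; the number of arrays limits the precision. The SDs cover variation within the arrays alone. The 9 genes, the 9 lists and the 8 marker lists were chosen with earlier results of these data known. Some genes are shared between lists, so the lists are not independent of each other. Named from each list are the genes past 2-fold or, where fewer than 4 are, the 4 with the largest absolute difference. Xist, Eif2s3y, Il2ra, Il2rg, Tgfbr1, Smad4, Tgfb1, Itgb7, Ctla4, Tnfrsf18, Icos, Ccr6, Tcf7, Actn1, Pde3b, and the genes given as above the floor on neither array or as lacking a probe were chosen after their values were seen, as were Ccr7, Csf3r, Mpeg1, Ms4a1, Kit, Gata2, H2-Aa and Cd8a. The same holds for Csf1r, Marco, Itgam, Cd79b, Bst2, Irf8, Siglech, Pacsin1, Tcf4, Ly6d, Cpa3 and Fcer1a. The steps were tested on simulated data. Versions were matplotlib 3.10.9, statsmodels 0.14.6, pandas 2.3.3, numpy 2.4.6 and Python 3.11.15.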

Additional observations from a re-analysis of the deposited data

How the results depend on the processing

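The 15 alternatives were 4 other scalings, the authors' table, 3 changes of the floor, a limit to probes detected on both arrays, 2 other ways to join probes, an offset of 16 units, leaving out feature numbers above 50000, and thresholds of 1.5-fold and 3-fold. No paired analysis was possible because each genotype has 1 array. The count of 1 regulatory T cell gene at least 2-fold higher became 0 with the offset and at 3-fold, and 2 at 1.5-fold. The count of 1 lower became 2 with a floor at the 25th percentile, without a floor and at 1.5-fold, and 0 at 3-fold or when the floor was the 75th percentile. Over all genes, the count of 485 higher became 980 with a floor at the 25th percentile, 136 with one at the 75th, 1029 at 1.5-fold and 215 at 3-fold. The count of 204 lower became 634 and 20 with these floors, 360 without a floor, 125 with probes detected on both arrays, 117 with the offset, 105 without feature numbers above 50000, 570 at 1.5-fold and 87 at 3-fold. The thresholds set their own counts by construction, and the cause of the other shifts was not tested. Of the 9 list medians 7 kept their sign; that of the Foxp3 induction list crossed 0 under 3 settings and that of the 3 other Ikaros genes under 1, at 0.19 without feature numbers above 50000. The median of all genes moved from -0.06 to 0.01 over the settings. Signals close to the floor limit Gpr83, whose range over the settings was the widest of the 7 genes with a value.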
